A study of Arabidopsis thaliana with 4 samples.

Results

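The Mutator-like transposon genes of Arabidopsis thaliana are the gene models whose deposited description names a transposon, transposase or retroelement together with Mutator or MuDR, and not a non-LTR, Copia, Gypsy or Athila element. They number 278 of the 30361 models on the array, and no intensity was used to choose them. TEKi seedlings carried in the accession Ler an artificial microRNA that targets TEK, which encodes a DNA-binding protein with an AT-hook motif, were third-generation plants labelled late flowering, and were set against wild-type Ler seedlings with normal flowering time. Both groups grew on MS plates and were harvested at day 7, and total RNA of separate cultures went onto 2 single-colour arrays per group. The number of independent microRNA lines and the promoter that drove the microRNA are unknown here.

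Mutator elements are DNA transposons that move by excision and insertion, carried out by a transposase named MURA in the founding maize element MuDR. In Arabidopsis most copies are kept silent by DNA methylation and by methylation of histone H3, and some become transcribed when that silencing is lost. A few have been domesticated: the MUSTANG (MUG) genes descend from Mutator transposases and serve the plant, as do the transcription factors FHY3, FAR1 and the FRS genes.

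The deposited array files and the deposited value table disagree on 2 of the 4 arrays. Wild type 1 and TEKi 2 are the same arrays in both forms. The array filed as wild type 2 stands in the value table as TEKi 1, and the array filed as TEKi 1 stands there as wild type 2, with all 30361 values identical in each case. The array-file labels are taken as the main ones, and values with the value-table labels are given beside them and named as such. TEK itself did not tell the labels apart: it had 9864 and 13770 in TEKi and 13406 and 14118 in wild type with the array-file labels (log2 difference -0.24, SE 0.249, n = 2 arrays per group, limma adjusted p = 1). Under the labels of the value table, TEK had 14118 and 13770 in TEKi and 13406 and 9864 in wild type (log2 difference 0.28, SE 0.226, adjusted p = 0.694).

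Most Mutator-like genes were dim. Their median intensity was 223 on TEKi 2 and 177 on the array filed as wild type 2, against 375 on the array filed as TEKi 1 and 287 on wild type 1, where the median of all genes lay between 5648 and 5820. On all 4 arrays, 131 of the 278 stayed below the lower quartile of all genes and 11 stayed above the median of all genes. The arrays fell into 2 pairs. Over 1000 intensity units stood 32 members on TEKi 2 and 35 on the array filed as wild type 2, but 94 on the array filed as TEKi 1 and 79 on wild type 1. Across the 278 members, which share probes, normalization and descent and are not independent, log2 intensities correlated at r = 0.889 (Pearson) within the first pair, 0.918 within the second and 0.585 to 0.626 between arrays of different pairs. Over all genes the same correlations were 0.974, 0.972 and 0.929 to 0.934. The log2 range over the 4 arrays exceeded 2 for 128 members, 46.0% of them, against 14.9% of all genes tested. Its median was 1.86 over members, 1.74 over other transposable element genes and 0.77 over all genes. No detection calls were used, so whether a dim value lies above background is not known.

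**Figure D1:**
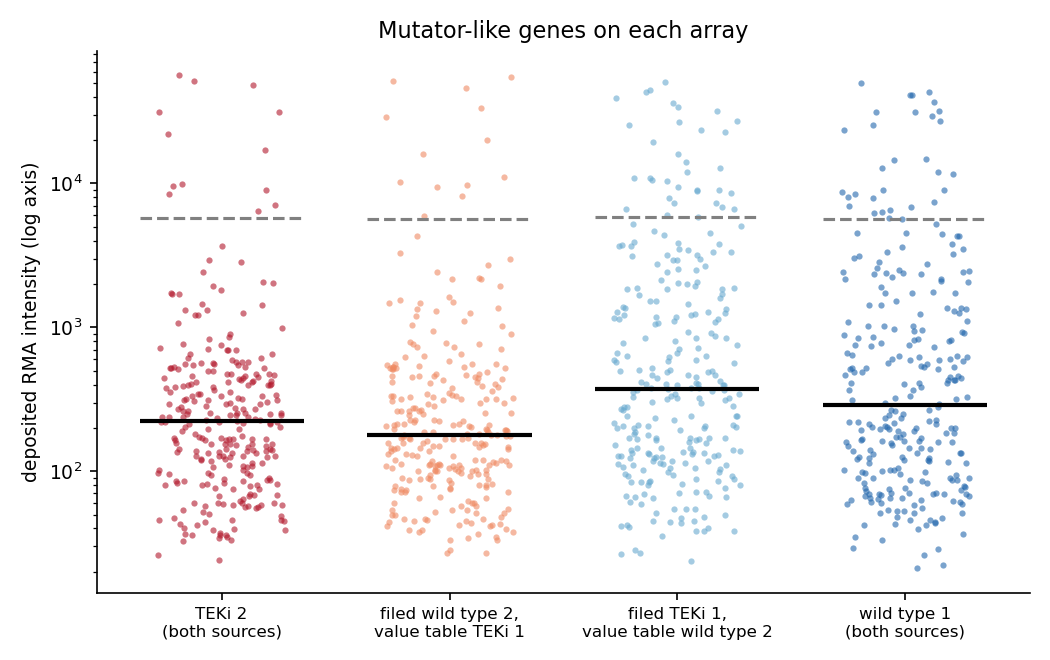
Deposited RMA intensity (log axis) of the 278 Mutator-like genes on each of the 4 arrays, 1 point per gene. Solid bars are the members' medians, 223, 177, 375 and 287 from left to right, and dashed bars the medians of all genes, between 5648 and 5820.

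With the array-file labels no Mutator-like gene passed the threshold of adjusted p = 0.05. Limma called 0 of 278 members and 0 of 30352 genes (0% of genes tested in either direction), and at an unadjusted p under 0.05 there were 5 members lower in TEKi (1.8% of members against 2.24% of all genes) and 9 higher (3.24% against 2.37%). A fit with plain per-gene variance also called 0, but it called 0 of all genes under both sets of labels and so adds no support. The median log2 difference of the members was 0.21, with a quartile range of -0.25 to 0.66, against 0.0060 over all genes. Its sign rested on single arrays: it was 0.45 without wild type 1 and 0.60 without TEKi 2, but -0.09 without wild type 2 and -0.20 without TEKi 1.

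The members with the smallest unadjusted p under these labels were dim genes whose arrays did not overlap between groups. AT1G52010 (chromosome 1, 19340717 to 19343053, genome release 6), annotated as a Mutator-like transposase, had 504 and 462 in TEKi against 61.6 and 108 in wild type (log2 difference 2.56, SE 0.359, adjusted p = 1). AT4G08660 had 364 and 384 in TEKi, against 160 and 131 in wild type. AT4G13254 had 405 and 577 in TEKi and 115 and 52.2 in wild type. The other 3 of the 6 genes named on the higher side, AT3G31909, AT2G07500 and AT4G03981, stayed at or under 265 on every array.

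On the lower side, AT2G10960 (chromosome 2, 4326633 to 4328550) had 312 and 238 in TEKi against 956 and 773 in wild type (log2 difference -1.66, SE 0.253, adjusted p = 1). AT3G32455 had 241 and 137 in TEKi, against 843 and 510 in wild type. Both were low on the 2 arrays filed as TEKi and neither reached 1000 on any array. The other 4 genes named on this side, AT3G43050, AT1G42595, AT5G28698 and AT3G43442, stayed at or under 263 on every array. Arrays of the groups did not overlap for 25 members lower in TEKi (8.99% against 14.7% of all genes) and for 37 higher (13.3% against 15.3%). Past 4-fold were 0 members lower (0.405% of all genes) and 4 higher (1.44% against 0.257%).

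With the value-table labels, 28 of the 278 members fell in the arrays labelled TEKi and 1 rose. That is 10.1% of members lower against 1.95% of all genes tested, and 0.360% higher against 0.273%. Among transposable element genes other than members, 226 of 2171 were called lower (10.4%), a share like that of the members. The falls ran from 3.79-fold to 322-fold, 18 of them over 16-fold. Adjusted p lay between 0.0128 and 0.0498, so 0 of the 28 would pass at 0.01. Over all genes tested the lowest adjusted p was also 0.0128, so 0 of those would pass either. In 25 of the 28, both arrays labelled TEKi were below 1000. At an unadjusted p under 0.05 there were 83 members lower (29.9% against 6.94% of all genes) and 18 higher (6.47% against 7.5%). Arrays of the groups did not overlap for 113 members lower (40.6% against 17.1%) and for 48 higher (17.3% against 27.7%). Past 4-fold were 65 members lower (23.4% against 3.98%) and 7 higher (2.52% against 1.2%). The median log2 difference over members was -0.37, with quartiles of -1.88 and 0.31, against 0.09 over all genes. With n = 2 arrays per group each single call rested on little replication. Leaving out any 1 of the 4 arrays leaves 1 array in a group, so such a fit cannot test a call. All 28 differences stayed negative in each of these fits. The 28 were chosen as lower on these same arrays, so this adds no support. The same 28 members had log2 differences between -0.99 (AT1G52610) and 1.02 (AT5G37383) with the array-file labels. The SEs of these 2 were 4.06 and 3.14, since each group then joined 1 bright and 1 dim array. Such differences are too imprecise to read as a lack of change.

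The largest fall called with the value-table labels was that of AT5G15995 (chromosome 5, 5218647 to 5220916). It is annotated as matching mudrA, the transposase gene of maize MuDR. Its intensity was 163 and 125 in the arrays labelled TEKi and 41357 and 51144 in those labelled wild type (log2 difference -8.33, SE 0.241, adjusted p = 0.0128). It thus stood among the brighter genes on 2 arrays and in the lowest quartile on the other two. AT1G52610 (chromosome 1, 19600264 to 19603071) had 313 and 114 in TEKi, against 36557 and 25446 in wild type (log2 difference -7.34, SE 0.604, adjusted p = 0.0338). AT3G15602 (chromosome 3, 5283453 to 5285774) had 146 and 331 in TEKi, against 14839 and 19550 in wild type (log2 difference -6.28, SE 0.495, adjusted p = 0.0318). All 3 match mudrA and lie over 5 Mb from the densest transposon bin of their chromosome.

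Under the value-table labels, replicates lay closest for AT1G78350 (chromosome 1, 29479807 to 29483165), with 529 and 500.0 in TEKi and 31768 and 32069 in wild type (log2 difference -5.96, SE 0.155, adjusted p = 0.0128). AT1G67240 (chromosome 1, 25162521 to 25165985) had 620 and 525 in TEKi, against 41041 and 36340 in wild type (log2 difference -6.08, SE 0.189). In AT2G07780 (chromosome 2, 3590811 to 3593224) the values were 151 and 171 in TEKi and 8982 and 10943 in wild type (log2 difference -5.95, SE 0.198). These 3 genes shared the lowest adjusted p, 0.0128, with AT5G15995. Their replicates differed by far less than their groups, which their being called requires, so this adds no support. AT1G64270 had 211 and 213 in TEKi, against 11979 and 8986 in wild type (log2 difference -5.61, SE 0.218, adjusted p = 0.0133).

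The rest of the 10 largest falls called with the value-table labels had wider replicate spread than AT1G64270 (SE 0.218). AT1G33460 had 157 and 57.8 in TEKi, against 5621 and 7318 in wild type (log2 difference -6.08, SE 0.581, adjusted p = 0.0452). AT5G37383 had 116 and 228 in TEKi, against 5748 and 12072 in wild type (log2 difference -5.68, SE 0.567, adjusted p = 0.0488). AT2G07100 had 93.8 and 58.1 in TEKi, against 5215 and 2654 in wild type (log2 difference -5.66, SE 0.476, adjusted p = 0.0355). In each the groups stayed far apart, as their choice among the largest falls required.

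The 1 member that rose with the value-table labels was AT3G29642 (chromosome 3, 11500367 to 11501828), with 1306 and 1214 in TEKi and 266 and 242 in wild type (log2 difference 2.31, SE 0.165, adjusted p = 0.0269). A larger difference on the higher side, chosen here after its values were seen, was that of AT5G27345 (chromosome 5, 9641508 to 9643920): 54901 and 56403 in TEKi against 755 and 3434 in wild type, a log2 difference of 5.11 whose wild-type arrays were far apart (SE 0.839, adjusted p = 0.116). On the first 2 arrays it was the brightest of all 278 members. Other wide-ranging members that missed the threshold were AT2G12066 (1370 and 446 in TEKi, 31624 and 39462 in wild type, adjusted p = 0.0639) and AT1G17275 (45.8 and 353 in TEKi, 8786 and 9424 in wild type, adjusted p = 0.140).

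The 3 Mutator genes fixed by name, known from earlier work on silencing, did not move together with the value-table labels. AT2G23500, the transposase gene of Hiun, a mobile copy of the VANDAL21 element, had 898 and 1449 in TEKi, against 8082 and 8533 in wild type, and just missed the threshold (log2 difference -2.86, SE 0.303, adjusted p = 0.0535). AtMu1 (AT4G08680), a Mutator copy reactivated in silencing mutants, had 10276 and 9561 in TEKi, against 6533 and 6012 in wild type (log2 difference 0.66, SE 0.163, adjusted p = 0.226). The third, AT2G15810, was dim throughout, at 114 and 82.0 in TEKi and 42.4 and 26.9 in wild type (adjusted p = 0.198). Under the array-file labels all 3 had adjusted p = 1.

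**Figure D2:**
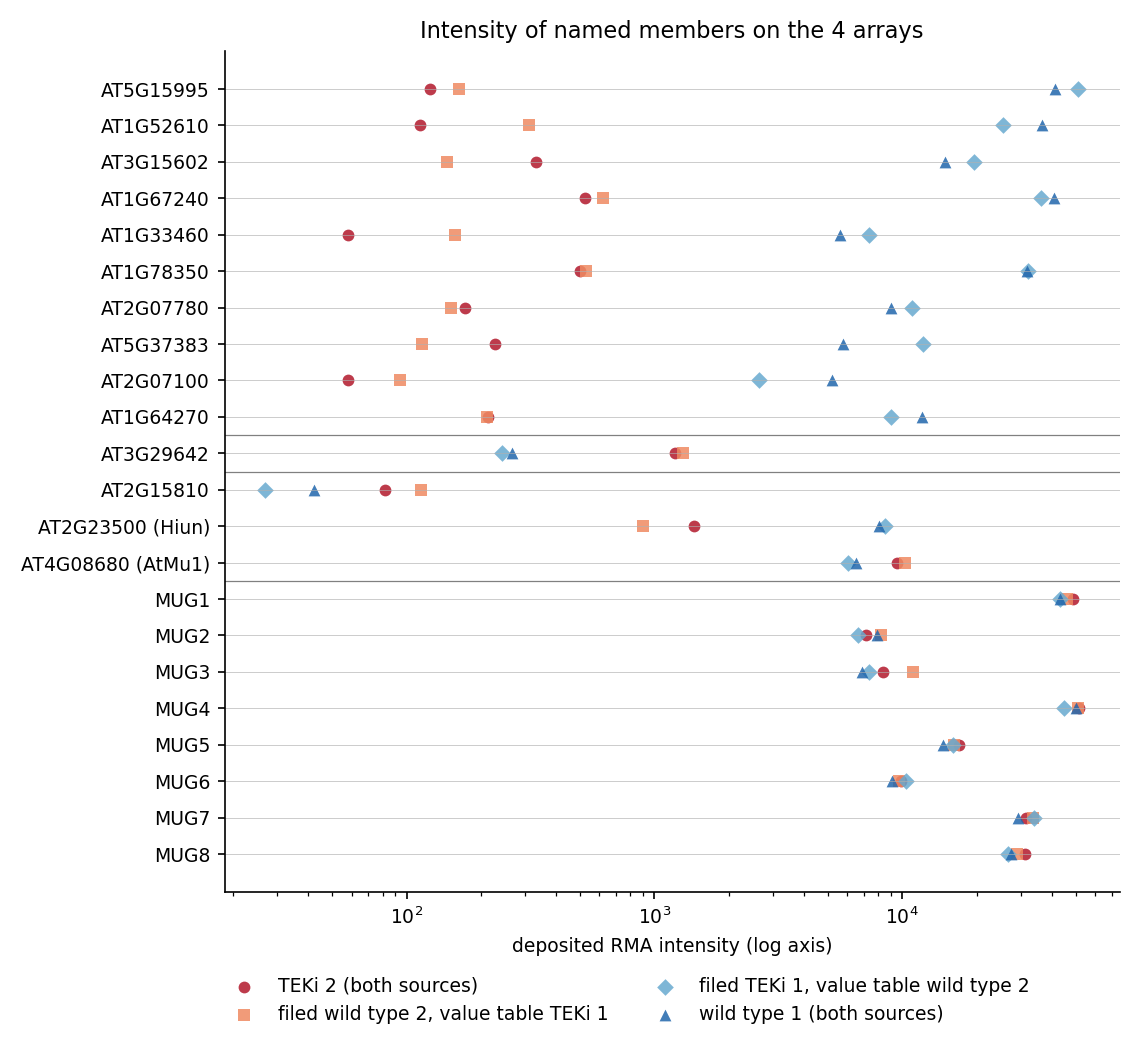
Deposited RMA intensity (log axis) of 22 Mutator-like genes on the 4 arrays, with marker and colour by array. From the top are the 10 largest falls and the 1 rise called with the value-table labels, 3 genes fixed by name, and the 8 MUG genes. The falls separate TEKi 2 and the array filed as wild type 2 from the other pair, whereas the markers of each MUG gene lie close together.

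TEKi 2 and wild type 1 are the only arrays that both deposited forms label alike, so their difference does not depend on the disputed labels, but with 1 array per group it has no replicate check. On TEKi 2, 63 of the 278 members were over 4-fold lower than on wild type 1 (22.7% against 4.92% of all genes) and 15 were over 4-fold higher (5.4% against 2.5%). Of the other transposable element genes 20.6% were over 4-fold lower, with a median log2 difference of -0.36. The median log2 difference was -0.27 over members and 0.07 over all genes. AT5G15995 (125 on TEKi 2, 41357 on wild type 1) and AT1G52610 (114 and 36557) stood at the low end, with log2 differences of -8.37 and -8.33. At the high end was AT5G27345 (56403 on TEKi 2, 755 on wild type 1, log2 difference 6.22). Both arrays also enter the 2 labelled comparisons, so these values are not separate evidence for either.

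The 8 MUG genes, all of them members by their description, were bright and nearly level. They made up 8 of the 11 members above the median of all genes on every array, beside AtMu1, AT1G78095 and AT4G08220. MUG4 (AT5G16505) had 51298 and 51669 in the arrays that the value table labels TEKi, against 50158 and 44728 in those labelled wild type. MUG1 (AT3G04605) had 46069 and 48641 in TEKi, against 43370 and 43169 in wild type. Each of the 8 had a log2 range under 1 over the 4 arrays, which 51 of 278 members and 59.9% of all genes had, and the median range was 0.22. Their median log2 difference was 0.12 with the value-table labels, near the 0.09 of all genes, and 0.04 with the array-file labels, and none passed the threshold under either. Likewise 0 of the 14 FHY3, FAR1 and FRS genes, transcription factors of light signalling and their relatives, passed under either set of labels. Their median log2 difference was 0.00090 with the value-table labels and -0.05 with the array-file labels. Of all genes, 1.95% were called lower and 0.273% higher with the value-table labels, and 0% with the array-file labels. So 0 calls in lists this short do not by themselves show a lack of change. A fit with plain per-gene variance called 0 genes of any kind under either set, so it cannot tell these genes from others.

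Members differed by the sequence that their description names as best match. Maize mudrA was named for 65 members, 1 of 20 Pfam MuDR domain sequences for 195, and no such match for 18. In 4 of the 12 domain groups with at least 9 members the value-table difference was far below 0: the median log2 difference was -2.77 for the 20 members matching Q9SI25, -2.37 for the 11 matching O22278, -1.97 for the 24 matching O80466 and -1.87 for the 15 matching Q9SKL7. With the array-file labels the medians of the same groups had the opposite sign, at 0.49, 0.55, 0.41 and 0.40, and no member was called. Under those labels TEKi and wild type each held 1 array of each pair, so arrays of the same label differed widely. With the value-table labels, 3 members matching Q9SI25 were called lower, 4 matching O22278, 5 matching O80466 and 1 matching Q9SKL7, beside the 1.95% of all genes called lower. The Q9SI25 group then had median intensities of 210 and 233 in TEKi and 1396 and 3749 in wild type. No member was called lower in the other 8 domain groups, whose medians lay between -0.48 (Q9S9L1) and 0.48 (Q9SHN7). In the largest of them, O65231 with 27 members, the median intensity was 197 and 220 in TEKi and 144 and 128 in wild type, dim in both groups. The mudrA group was split, with 14 of 65 called lower and a median of only -0.12, and it also held all 8 MUG genes. The classes were described after the calls of the whole series were known, members of a group are related in sequence, and probe sequences are not used here, so whether related copies hybridised to the same probes was not tested. Each member rested on 2 or 3 probe pairs (249 and 29 members), and 3 models stood for several loci that share their probes, none of them called.

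**Figure D3:**
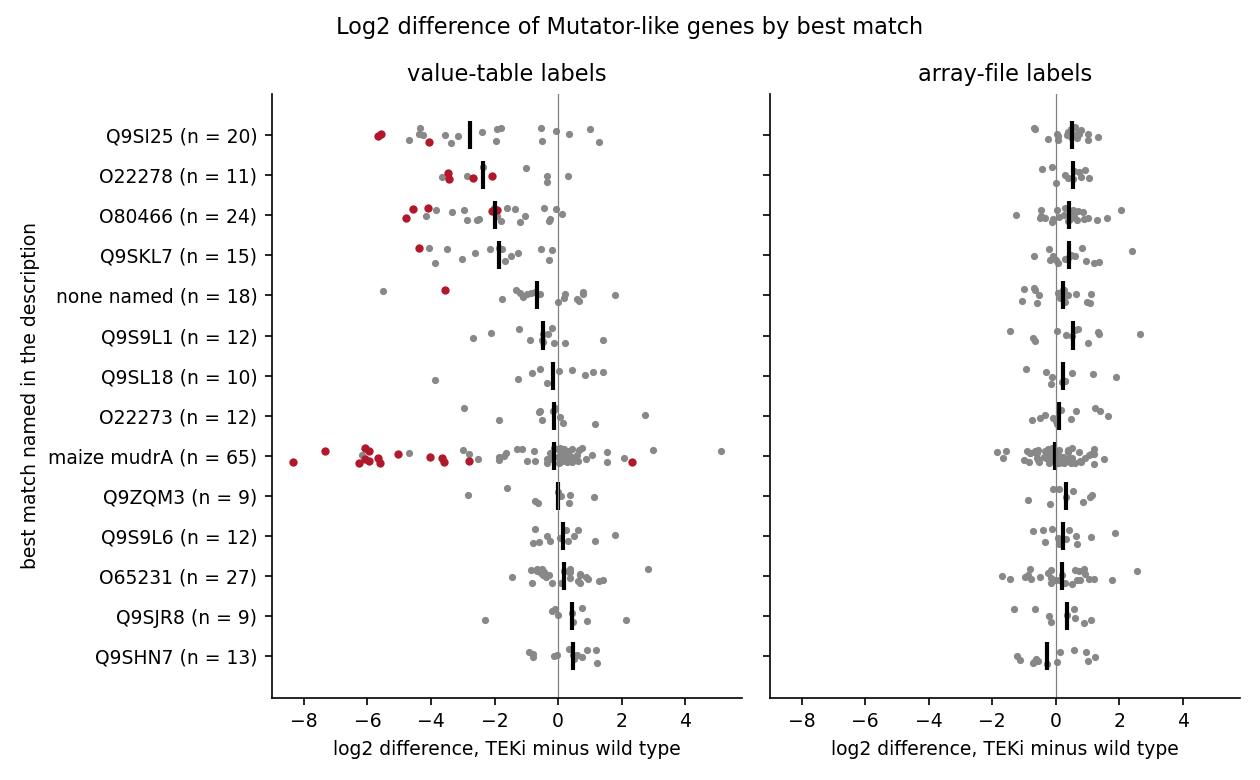
Log2 difference, TEKi minus wild type, of each Mutator-like gene by the best match named in its description, for groups of at least 9 members, with the value-table labels (left) and the array-file labels (right). Red points passed adjusted p = 0.05 and bars are group medians; at left the medians of Q9SI25, O22278, O80466 and Q9SKL7 lie between -2.77 and -1.87.

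Members were spread over all 5 chromosomes (50, 69, 65, 45 and 49 on chromosomes 1 to 5) and gathered near the centromeric regions. By distance from the centre of the 1 Mb bin with most transposon models on the chromosome, 151 lay within 2 Mb, 92 between 2 and 5 Mb and 35 farther out. With the value-table labels, 14 of the 151 fell (9.27%), 5 of the 92 (5.43%) and 9 of the 35 (25.7%). The 35 include 7 MUG genes, and of the other 28 in that class 9 fell (32.1%). AT1G64240 and AT1G64270, 10.7 kb apart, are both among these falls. The median log2 difference of the 28 was -1.62, against -0.37 within 2 Mb. The array-file labels gave medians of 0.08 and 0.27, and no member was called in any class. Differences between the distance classes were not tested. Other transposable element genes showed 168 of 1444 (11.6%), 38 of 536 (7.09%) and 20 of 191 (10.5%) called lower with the value-table labels in the same classes, and genes outside transposable elements 7.05%, 1.18% and 0.471%. By chromosome the members called lower with the value-table labels were 8, 3, 5, 4 and 8, with medians between -0.52 (chromosome 5) and -0.20 (chromosome 4), whereas the array-file medians lay between 0.05 (chromosome 1) and 0.41 (chromosome 3).

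**Figure D4:**
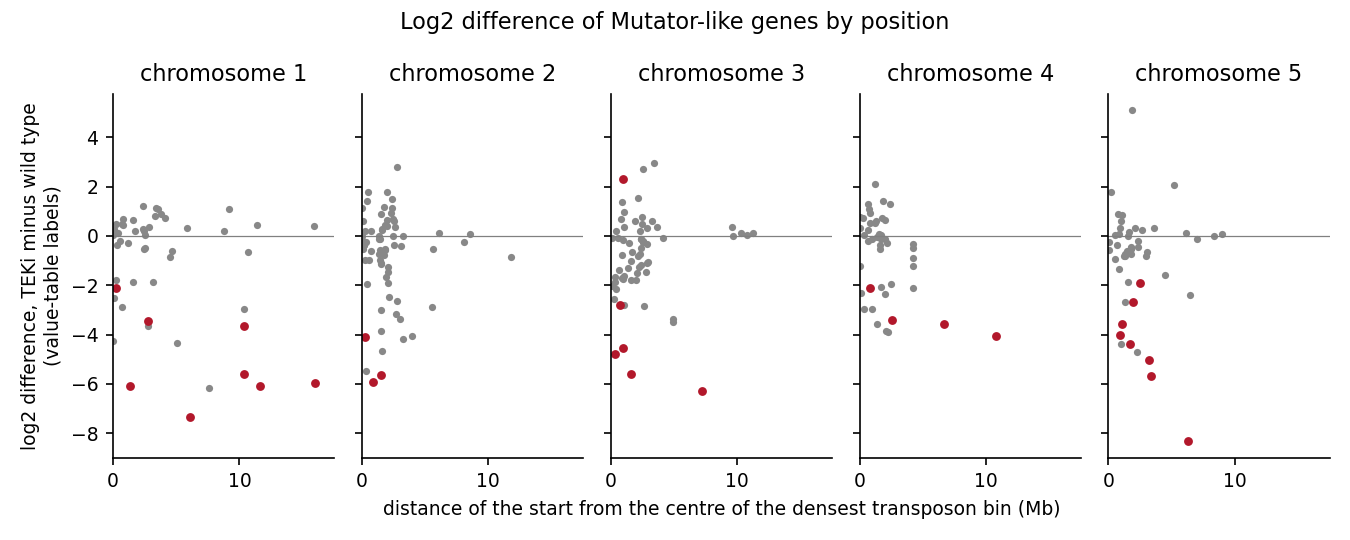
Log2 difference, TEKi minus wild type with the value-table labels, of each Mutator-like gene against the distance (Mb) of its start from the centre of the densest transposon bin, by chromosome. Red points passed adjusted p = 0.05; the 9 that fell beyond 5 Mb lie on chromosomes 1, 3, 4 and 5.

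Of the 28 members that fell with the value-table labels, 12 had a directly adjacent gene model that also fell. The gaps ran from 377 to 2029 bases. None of these 12 neighbours is described as a transposon: 9 are given as unknown proteins and 3 as pseudogenes. Next to AT5G15995, AT5G15990 had 90.6 and 92.9 in TEKi, against 16036 and 16873 in wild type. Next to AT5G37383, AT5G37385 had 130 and 441 in TEKi and 41101 and 45151 in wild type, a log2 difference of -7.49 against -5.68 for the transposase gene. The 12 neighbours' log2 differences with the array-file labels lay between -0.61 (AT5G33260) and 0.95 (AT5G37385), and none was called. With the value-table labels 1 neighbour rose: AT5G37130, next to AT5G37125, had 46169 and 39348 in TEKi and 12446 and 11662 in wild type (log2 difference 1.82, adjusted p = 0.0468). Over all models next to these 28 members, 12 of 56 fell (21.4%), against 49 of 463 next to members that were not called (10.6%) and 1.95% of all genes. The second set can include members that fell. Among models not described as transposons the counts were 12 of 49 and 37 of 364. Of genes outside transposable elements within 2 Mb of the densest bin, 7.05% fell. Differences between these shares were not tested. The model next to AT2G23500, AT2G23490, given as an unknown protein, fell as well with the value-table labels, to 648 and 452 in TEKi against 58279 and 55368 in wild type (log2 difference -6.71, SE 0.249, adjusted p = 0.0133). Autonomous Mutator-like elements can carry genes besides their transposase, but the deposited annotation does not give element borders.

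**Figure D5:**
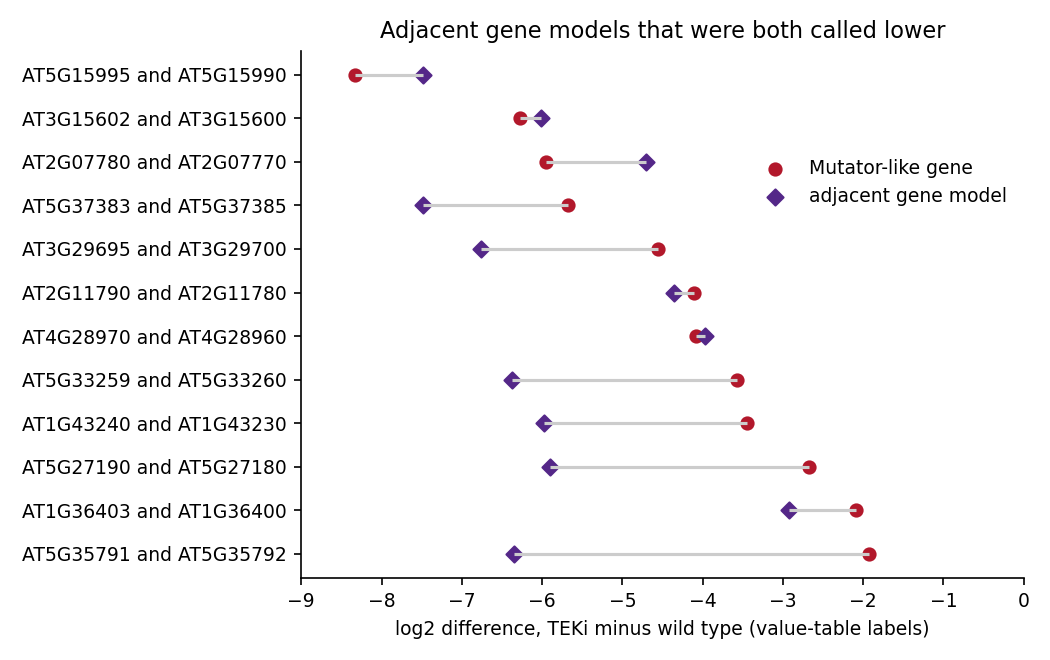
Log2 difference, TEKi minus wild type with the value-table labels, of 12 Mutator-like genes (circles) and the adjacent gene model that was also called lower (diamonds). The neighbours' differences ran from -2.93 to -7.49.

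Beside other DNA transposons, with the value-table labels, 28 of 278 Mutator-like genes (10.1%) and 8 of 82 hAT genes (9.76%) were called lower, against 112 of 340 CACTA genes (32.9%). Median log2 differences were -0.37, -0.18 and -1.89 in that order, and differences between these classes were not tested. With the array-file labels none of the 3 classes had a gene called, and the medians were 0.21, 0.22 and 0.0035. Over all genes 1.95% were called lower and 0.273% higher with the value-table labels, and 0% with the array-file labels. At such shares 0 calls in a short list do not show a lack of change. Of 20 factors that silence DNA transposons, among them the remodeler DDM1 and the methyltransferases MET1 and CMT2, 0 passed under either set of labels. The nearest was NRPE1, which encodes the main subunit of the plant-specific polymerase Pol V, with 22325 and 28661 in the arrays that the value table labels TEKi and 6736 and 6840 in those labelled wild type (adjusted p = 0.0551).

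Seedling markers were present, with LHCB2.1 and RBCS1A, genes of photosynthesis, at 54170 or more on every array and the root hair gene RHD2 between 8142 and 14892. LHCB1.1 alone was dim, between 96.3 and 636. Of 4 markers of seed and flower, 1 was called, with the value-table labels only. This was the storage protein gene CRA1, which had 739 and 1388 in the arrays that the value table labels TEKi, against 15671 and 14517 in those labelled wild type (adjusted p = 0.0464). OLEO1, an oil body gene of seeds, had 2210 and 7485 in TEKi and 14132 and 12713 in wild type (log2 difference -1.72, adjusted p = 0.408). Neither floral gene passed: AP3 had 1417 and 433 in TEKi and 711 and 188 in wild type (log2 difference 1.1, adjusted p = 0.722), and AG had a log2 difference of -0.13 (adjusted p = 0.958). The summed intensity of the 4, carried mainly by CRA1 and OLEO1, was 5674 and 10032 in TEKi and 32181 and 28104 in wild type. All 4 had adjusted p = 1 with the array-file labels, with log2 differences of 0.40 for CRA1, 0.80 for OLEO1, -1.07 for AG and -1.81 for AP3. Their part in the results was not tested. In whole seedlings, fewer cells that transcribe an element and less transcript per cell cannot be told apart.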

How the data were processed

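The deposited files hold 1 linear-scale intensity for each gene model on each array, made by RMA per the submitters' processing notes (a method that corrects background, normalizes arrays and combines probes; no version or setting is known here). Coordinates are those of genome release 6, named in the files' annotation column. Symbols came from a RefSeq table of another assembly, which held all 278 members. Labels call the 2 arrays of a group separate cultures. The number of arrays limits the precision of each value.

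Here intensities were converted to log2 after 9 of 30361 models with an exact 0 were left out, with no pseudocount or filter. TEKi was compared with wild type over 30352 genes by limma 3.58.1 (lmFit, eBayes, 2-sided) in R 4.3.3, with Benjamini-Hochberg adjustment over all genes. Adjusted p and SE come from that fit. Named genes were the 10 largest falls and rises called, or else the 6 smallest unadjusted p, plus the brightest 5, the 8 with the widest range and 3 fixed names; exceptions are stated. Members, lists and both label sets were chosen with earlier results of these data known. No sequences are used here. Alternatives covered normalization, dim-gene filters, a pseudocount, variance models, thresholds, a replicate block and leaving out arrays.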

Additional observations from a re-analysis of the deposited data

How the results depend on the processing

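With the array-file labels 0 members were called under every alternative that kept 2 arrays per group. The exception was the value-table labels, with 28 lower and 1 higher. The median of 0.21 ran from -0.20 to 0.60 without single arrays. With the value-table labels the 28 falls became 45 with a mean-variance trend and 1 without genes below the median level (13 members tested). Over all genes the 591 falls became 926 of 30352 with the trend and 157 of 15176 without genes below the median level. Falls became 0, among members and all genes alike, with plain per-gene variance, the replicate block or adjusted p = 0.01. The 1 rise became 2 without the lowest quartile, with a pseudocount of 50 and with the trend, and 0 in each setting with no falls and without genes below the median level. The median of -0.37 became -1.90 without the lowest quartile and 0.12 without genes below the median level. Both filters use the mean of the 4 arrays, so they select partly on the difference. Replicate numbers stand for separate cultures, and the labels name no pairing of arrays by number. With the array-file labels, however, same-numbered arrays were the most alike. Over members Pearson r was 0.918 between the arrays numbered 1 and 0.889 between those numbered 2. Whether same-numbered arrays were handled together is unknown here, and the main fit leaves this likeness in its error. Under the array-file labels r between deviations of same-numbered arrays was 0.650 across genes and under the value-table labels 0.112. The replicate block left 0 calls under both (lowest member adjusted p 0.694 and 0.0753). For TEKi 2 against wild type 1, the 63 members lower were 1 without genes below the median level and 24 at 16-fold, and the 15 higher were 4 without the lowest quartile, 1 without genes below the median level, 5 with a pseudocount of 50, 47 at 2-fold and 1 at 16-fold. Without single arrays, TEK ran from -0.48 to 0.0014 with the array-file labels and MUG7 (AT3G05850) from -0.067 to 0.15 with the value-table labels. The cause was not tested.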
